A study of Mus musculus with 6 samples.

Results

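The genes described here act in mitosis, the division of the chromosomes between daughter cells. A list of 40 such genes was taken, chosen by name for their role: the kinase Cdk1 and its cyclins, the mitotic kinases, the spindle checkpoint, kinetochore proteins, kinesins, condensin and proteins of cytokinesis. Expression on the arrays of this study could be read for 3 of the 40, Mki67, Top2a and Cdk1, each by 1 probe set (a group of probes for 1 transcript) that was given with the list. The deposited array table pairs no probe set with a gene name, so the pairing rests on that list. The other 37 members were not analysed here, and what follows on expression is about these 3 genes, not about the whole list.

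Cells that divide pass through DNA replication and then mitosis, and most genes of mitosis are transcribed in G2 and M phase and are off in resting cells. In T cells they mark proliferation, which thymocytes and lymphoma cells undergo and resting peripheral T cells do not. Mki67 encodes the Ki-67 protein, which coats mitotic chromosomes and is the standard marker of cycling cells. Top2a encodes topoisomerase II alpha, which untangles and condenses chromosomes before they separate. Cdk1 encodes the cyclin-dependent kinase that drives entry into mitosis when bound to cyclin A or B. On bulk arrays, a lower share of dividing cells and less of a transcript per dividing cell cannot be told apart.

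All 6 arrays came from mice labelled L-DKO, a strain with high levels of E proteins (transcription factors of lymphocyte development) whose alleles the labels do not spell out. There were 3 arrays of premalignant NKT cells (T cells with the invariant receptor that the CD1d tetramer binds), sorted from mice aged 3 weeks, 2 of lymphoma cells from Peyer's patch that bound the CD1d tetramer (CD1dtet+ tumors 1 and 2, ages 20 and 18 weeks) and 1 of lymphoma cells from thymus that did not (the CD1dtet- tumor, 37 weeks). No array held normal or resting T cells, and stage, age and, among the tumors, site and tetramer binding changed together and cannot be told apart. The site of the premalignant cells is not stated here, and the tumors came from different sites. A difference between the stages can therefore also hold a difference of site, which cannot be told apart either. The cell identity could not be checked against marker genes, because the probe sets carry no names.

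The start regions of the 3 genes are shown first, because mitotic genes share promoter elements. The cell cycle genes homology region (CHR), bound by the DREAM and MuvB complexes, holds them off in resting cells and on in G2 and M phase, and CCAAT boxes bind the factor NF-Y. Each window below runs from 250 bases before to 50 bases after a RefSeq transcript start (build GRCm38.p6), read 5′ to 3′ along the gene. Capitals mark the CHR letters TTTGAA or TTCGAA and the CCAAT box letters CCAAT, on either strand, so that TTCAAA and ATTGG are the same motifs on the opposite strand.
Mki67, chr7:135716330-135716629, minus strand: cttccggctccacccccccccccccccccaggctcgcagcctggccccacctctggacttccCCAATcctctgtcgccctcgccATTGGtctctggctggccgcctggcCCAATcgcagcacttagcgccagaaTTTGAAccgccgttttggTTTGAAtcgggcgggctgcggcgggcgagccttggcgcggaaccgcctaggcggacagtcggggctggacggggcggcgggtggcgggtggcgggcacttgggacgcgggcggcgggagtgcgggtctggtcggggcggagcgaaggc
Top2a, chr11:99024140-99024439, minus strand: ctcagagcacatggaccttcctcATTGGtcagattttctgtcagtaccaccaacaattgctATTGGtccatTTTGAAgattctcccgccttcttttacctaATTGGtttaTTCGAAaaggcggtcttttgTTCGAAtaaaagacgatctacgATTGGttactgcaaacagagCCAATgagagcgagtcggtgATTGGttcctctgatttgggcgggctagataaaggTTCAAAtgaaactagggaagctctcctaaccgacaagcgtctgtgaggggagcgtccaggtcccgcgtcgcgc
Cdk1, chr10:69352863-69353162, minus strand: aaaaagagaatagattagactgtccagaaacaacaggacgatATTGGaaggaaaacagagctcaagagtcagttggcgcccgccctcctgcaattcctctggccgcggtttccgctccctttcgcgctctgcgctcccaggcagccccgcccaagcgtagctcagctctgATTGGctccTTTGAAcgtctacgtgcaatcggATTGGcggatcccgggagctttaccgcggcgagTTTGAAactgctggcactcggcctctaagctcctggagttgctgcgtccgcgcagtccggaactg

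All 3 windows held several copies of both motifs. The Mki67 window had 2 CHR matches, beginning 116 and 98 bases before the start, and 3 CCAAT boxes upstream of them. The Top2a window had 4 CHR matches and 6 CCAAT boxes. The Cdk1 window had 2 CHR matches, the nearer beginning 15 bases before the start, and 3 CCAAT boxes. No CHR match in these windows overlapped a CCAAT box.

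**Figure D1:**
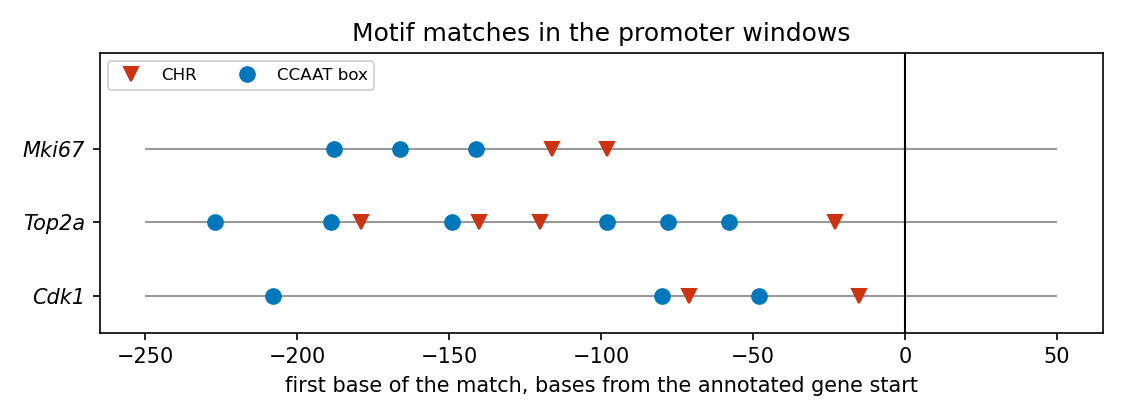
Motif matches in the promoter windows of Mki67, Top2a and Cdk1. The horizontal axis is the first base of each match in bases from the RefSeq transcript start of the window (vertical line). The axis label calls this the gene start. The grey line is the window, triangles are CHR letters and circles are CCAAT boxes. All matches lie before the start.

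Promoter windows could be read for 34 of the 40 list members, including the 3 measured, and the others were Ccna2, Aurkb, Kif20a, Tpx2, Smc4 and Incenp. Ect2 and Prc1 had 2 windows each, which gave 36 windows. CHR letters were present in 80.6% of these, against 19.2% of all 32851 windows in the table. A CCAAT box was present in 86.1%, against 37.4% of all windows, and 2 or more in 58.3%, against 11.7%. Both motifs together were present in 77.8%, against 7.52%. The letters TATAAA of the TATA box were found in 2.78%, against 13.6%, and the 1 member with them was Kif2c, a kinesin that takes microtubules apart. The 7 members without CHR letters in this window were Birc5, Ccnb1, Cenpe, Mad2l1, Melk, Nek2 and Nusap1. The 5 without a CCAAT box were Birc5, Kif2c, Mad2l1, Melk and Nusap1. These shares describe letters in short windows and were not tested, and they say nothing of expression in these samples.

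All 3 transcripts gave bright signal on every array, in premalignant and lymphoma cells alike. Over the 6 arrays, the mean of the Mki67 probe set (ID-1426817_at) was reached by 2.94% of the 22626 probe sets, that of the Top2a probe set (ID-1454694_a_at) by 3.39% and that of the Cdk1 probe set (ID-1448314_at) by 10.4%. Probe sets differ in how well they bind, so these shares do not rank the genes against each other.

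Mki67 read 11.60, 11.09 and 11.98 log2 units in premalignant samples 1, 2 and 3. It read 12.10 and 11.47 in CD1dtet+ tumors 1 and 2, and 11.49 in the CD1dtet- tumor. The stages overlapped: CD1dtet+ tumor 1 was the highest array, and the other tumors lay between premalignant samples 2 and 1. The lymphomas averaged 11.69 ± 0.36 (SD, n = 3) and the premalignant samples 11.55 ± 0.45 (SD, n = 3). The difference was 0.13 log2 units, and its 95% interval was -0.53 to 0.80 (limma adjusted p = 0.793 over all probe sets). The interval runs from 0.691-fold to 1.74-fold.

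Top2a behaved much like Mki67. It read 11.47, 10.81 and 11.73 log2 units in premalignant samples 1, 2 and 3, 11.86 and 11.41 in CD1dtet+ tumors 1 and 2, and 11.50 in the CD1dtet- tumor. The stages overlapped here too, with premalignant sample 2 below and CD1dtet+ tumor 1 above all others. The lymphomas averaged 11.59 ± 0.24 (SD, n = 3) and the premalignant samples 11.34 ± 0.47 (SD, n = 3). The difference was 0.25 log2 units, and its 95% interval was -0.36 to 0.87 (limma adjusted p = 0.566). The interval runs from 0.777-fold to 1.83-fold.

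Cdk1 was the member whose stages did not overlap. It read 9.87, 9.30 and 10.24 log2 units in premalignant samples 1, 2 and 3, and 10.59, 10.45 and 10.48 in CD1dtet+ tumor 1, CD1dtet+ tumor 2 and the CD1dtet- tumor. Each tumor was above each premalignant sample, a pattern also seen at 11.3% of all probe sets. The nearest arrays were premalignant sample 3 and CD1dtet+ tumor 2. The lymphomas averaged 10.51 ± 0.08 (SD, n = 3) and the premalignant samples 9.80 ± 0.47 (SD, n = 3). The difference was 0.70 ± 0.24 (SE), or 1.63-fold, with a 95% interval of 1.10-fold to 2.41-fold before adjustment. It missed the threshold of 0.05 after Benjamini-Hochberg adjustment over 22626 probe sets (limma adjusted p = 0.142).

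**Figure D2:**
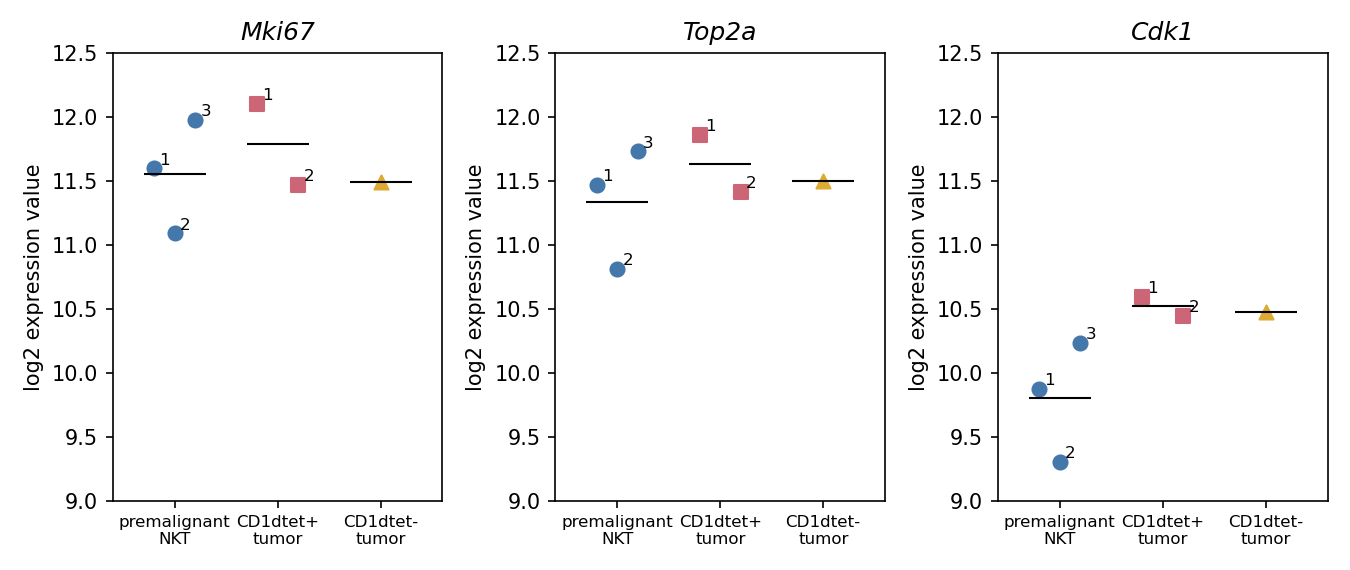
Expression of Mki67, Top2a and Cdk1 on each of the 6 arrays, in log2 units (vertical axis), by group. Each point is 1 array, numbered as in the labels, and the horizontal lines are group means. The groups overlap for Mki67 and Top2a, and each tumor lies above each premalignant sample for Cdk1.

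With limma, 0 of the 3 members passed the threshold for lymphoma against premalignant cells, where 4.63% of all probe sets passed. At an unadjusted p under 0.05 there was 1, Cdk1, as were 5504 of the 22626 probe sets. Cdk1 does not stand out by this measure. The median difference over all probe sets was -0.09 log2 units. A difference as large as that of Cdk1, or larger, in the same direction was found at 6.95% of probe sets, as large as that of Top2a at 18.4% and as large as that of Mki67 at 25.4%.

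The tumor kinds were then set against the premalignant cells one at a time. In the CD1dtet+ tumors, Cdk1 was 0.72 ± 0.27 (SE) log2 units above premalignant cells (limma adjusted p = 0.153), Top2a 0.30 ± 0.30 (SE; limma adjusted p = 0.535) and Mki67 0.23 ± 0.31 (SE; limma adjusted p = 0.647). With limma, 0 of 3 passed, where 9.65% of all probe sets did. At an unadjusted p under 0.05 there was 1, Cdk1, as were 6537 of the 22626 probe sets. In the single CD1dtet- tumor, Cdk1 was 0.67 ± 0.35 (SE) above premalignant cells (limma adjusted p = 0.323), Top2a 0.17 ± 0.37 (SE; limma adjusted p = 0.833) and Mki67 -0.06 ± 0.39 (SE; limma adjusted p = 0.944). Again 0 of 3 passed with limma, where 5.99% of all probe sets did, and 0 had an unadjusted p under 0.05. These comparisons share the 3 premalignant arrays, so their likeness is no separate support. The test for the CD1dtet- tumor also assumes that it varies as the other samples do.

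The tumor kinds lay close to each other for Cdk1, at 10.52 ± 0.10 (SD, n = 2) log2 units in the CD1dtet+ tumors and 10.48 in the CD1dtet- tumor. The CD1dtet- tumor was lower by 0.04 for Cdk1, and the 95% interval of this difference, -0.94 to 0.86, was wide. For Top2a the difference between tumor kinds was -0.13 (interval -1.10 to 0.84) and for Mki67 -0.30 (interval -1.31 to 0.72). With limma, 0 of 3 passed, where 2.71% of all probe sets did, and 0 had an unadjusted p under 0.05. A fall of 2-fold lies inside the Mki67 and Top2a intervals, so these arrays do not show that the tumor kinds are alike.

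**Figure D3:**
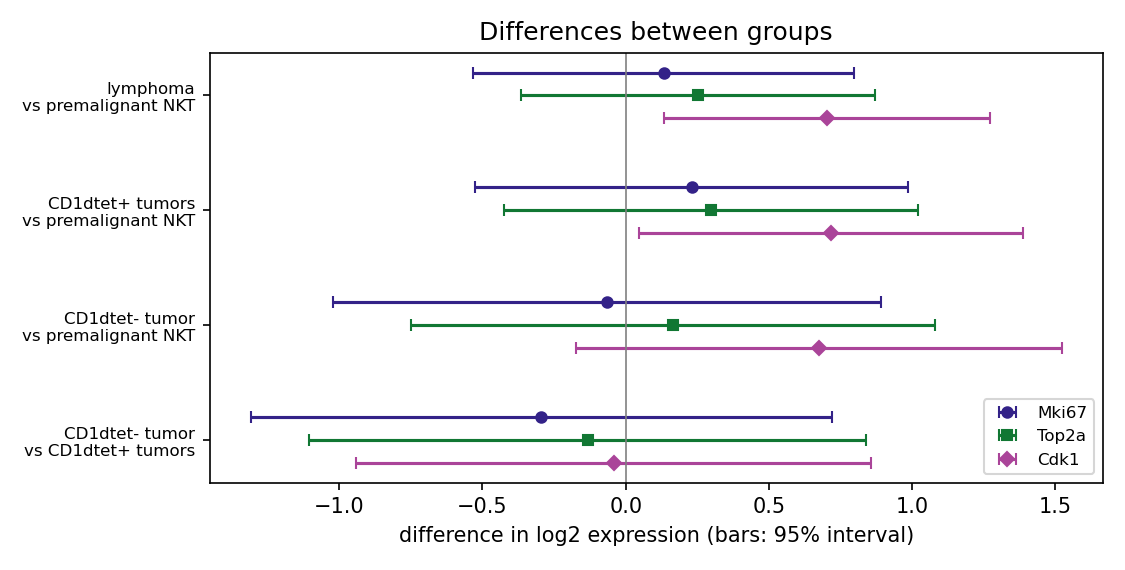
Difference in mean log2 expression between groups (horizontal axis) for Mki67, Top2a and Cdk1 in each of the 4 comparisons, with bars for the 95% interval of the limma fit, not adjusted for the number of probe sets. The Cdk1 intervals for lymphoma and for the CD1dtet+ tumors against premalignant cells lie above 0, and the others include 0.

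The premalignant samples differed among themselves more in these genes than in most others. Their SD was 0.45 log2 units for Mki67, 0.47 for Top2a and 0.47 for Cdk1, where the median probe set had 0.14. An SD as large was found at 2.98%, 2.44% and 2.46% of probe sets, respectively. Sample 2 was the lowest and sample 3 the highest for all 3 genes, an order seen at 20.8% of all probe sets. From lowest to highest the premalignant samples spanned 0.89 log2 units for Mki67, 0.92 for Top2a and 0.94 for Cdk1, more than the difference between the stages for each gene. Among the lymphomas the SD was 0.36 for Mki67, 0.24 for Top2a and 0.08 for Cdk1, where the median probe set had 0.20. An SD as large as that of Cdk1 among the lymphomas was found at 86.9% of probe sets, so Cdk1 was among the less variable transcripts there.

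The 3 genes were averaged per array after each was centred on its own mean over the 6 arrays. This mean was -0.10, -0.68 and 0.23 log2 units in premalignant samples 1, 2 and 3, 0.44 and 0.03 in CD1dtet+ tumors 1 and 2, and 0.08 in the CD1dtet- tumor. The lymphomas averaged 0.18 ± 0.22 (SD, n = 3) and the premalignant samples -0.18 ± 0.46 (SD, n = 3), and the stages overlapped, as premalignant sample 3 was above CD1dtet+ tumor 2 and the CD1dtet- tumor. No test was made of this average.

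A measure of RNA integrity moved with it. Gapdh has control probe sets at its 3′ and 5′ ends, and the 3′ signal minus the 5′ signal is larger where transcripts lack their 5′ part. The ends of no other transcript were compared. In log2 units this Gapdh difference was 0.23, 0.57 and -0.03 in premalignant samples 1, 2 and 3, -0.10 and 0.13 in CD1dtet+ tumors 1 and 2, and -0.0037 in the CD1dtet- tumor. Ordered from the largest to the smallest Gapdh difference, the 6 arrays ran in the order of the 3-gene average from lowest to highest. With the median over the genes in place of the mean, CD1dtet+ tumor 2 (-0.05) and premalignant sample 1 (-0.02) changed places in this order. In the limma fit of the stages with the Gapdh difference as a covariate, added after the values were seen, the slope was -1.65 ± 0.42 (SE) for Mki67, -1.61 ± 0.32 (SE) for Top2a and -1.47 ± 0.31 (SE) for Cdk1, in log2 units of expression per log2 unit of the Gapdh difference. A slope as low was found at 0.769%, 0.902% and 1.28% of probe sets, respectively. The covariate was added with the values of these genes in view, and the 3 genes moved together. These shares are therefore no separate support. The adjusted p of the slope was 0.999 for each gene, and 0 of 22626 probe sets passed for this slope with limma (688 at an unadjusted p under 0.05). With this covariate the difference between lymphoma and premalignant cells was 0.34 ± 0.14 (SE) log2 units for Cdk1 (limma adjusted p = 0.326), -0.15 ± 0.14 (SE; limma adjusted p = 0.656) for Top2a and -0.28 ± 0.19 (SE; limma adjusted p = 0.515) for Mki67. Poly-A spike-ins, added before labelling, ran against the 3 genes within the premalignant samples, at 8.83, 9.39 and 7.93 log2 units in samples 1, 2 and 3. Among the lymphomas they ran with the 3 genes, at 9.01 and 7.52 in CD1dtet+ tumors 1 and 2 and 8.05 in the CD1dtet- tumor. Hybridization spike-ins, added after labelling, ran in the same order within each stage. They read 11.305, 11.381 and 10.845 in premalignant samples 1, 2 and 3. In CD1dtet+ tumors 1 and 2 they read 10.91 and 10.47, and in the CD1dtet- tumor 10.53. The part of the spike-in level in the result was not tested.

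Within an array the 3 genes kept a nearly constant relation in premalignant cells, while Cdk1 lay higher relative to Mki67 and Top2a on the 3 tumor arrays, a difference that does not pass a threshold of 0.05. Values were expressed as the change from each gene's premalignant mean, and the change of Mki67 was subtracted from that of Cdk1. In premalignant samples 1, 2 and 3 this gave 0.03, -0.04 and 0.01 log2 units. In CD1dtet+ tumors 1 and 2 it gave 0.24 and 0.73, and in the CD1dtet- tumor 0.74. Every tumor lay above every premalignant sample, by a mean of 0.57 log2 units (1.49-fold), with SDs of 0.29 in lymphoma and 0.03 in premalignant cells (n = 3 each). Cdk1 alone also separated the stages, as did 11.3% of all probe sets. The share of other pairs of probe sets that separate the stages, or stay as constant in premalignant cells, was not computed for any pair here. The exact permutation test, two-sided, gave p = 0.1, the smallest that 3 arrays against 3 allow.

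For Cdk1 against Top2a the same quantity was -0.06, 0.02 and 0.04 in premalignant samples 1, 2 and 3, 0.27 and 0.57 in CD1dtet+ tumors 1 and 2, and 0.51 in the CD1dtet- tumor. Every tumor was again above every premalignant sample, by a mean of 0.45 (exact permutation p = 0.1). Top2a against Mki67 differed between the stages by 0.12 only, and the stages overlapped (exact permutation p = 0.2). Over the 3 pairs of genes, which share members and were set up after the values had been seen, the Benjamini-Hochberg adjusted values were 0.15, 0.15 and 0.2.

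**Figure D4:**
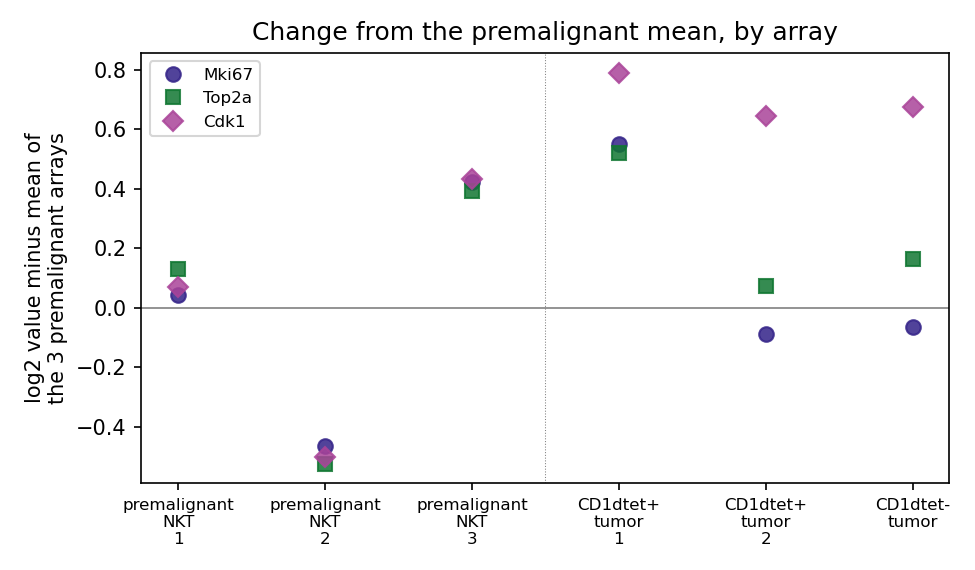
Change of Mki67, Top2a and Cdk1 from the mean of the 3 premalignant arrays (vertical axis, log2 units), for each array. The 3 genes lie within 0.09 log2 units of each other on each premalignant array, and Cdk1 lies above the other genes on each tumor array.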

How the data were processed

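Total RNA of 6 samples was labelled with biotin and hybridized to 1 Affymetrix Mouse Genome array each. The deposited values are log2 expression, 1 for each probe set and array. Per the submitters' processing notes, RMA (background correction, quantile normalization and summary of probes) and limma were used, with no version or probe set definition stated there. RMA forces arrays to a common distribution, so a shift shared by most transcripts would not be seen. Values ran from 1.99 to 14.67, and array medians from 6.74 to 6.83. The number of arrays limits the precision. The series text gives 3 mice for the premalignant samples, and the tumors differ in age, but the labels number no animals, so the p-values reflect only how these samples varied.

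Without the 64 control probe sets, 22626 were tested as deposited with limma 3.58.1 (lmFit and eBayes, two-sided) in R 4.3.3, with Benjamini-Hochberg adjustment over all of them and a threshold of 0.05. Lymphoma and premalignant cells were compared in a fit of 2 groups, the other comparisons in a fit of 3. The alternatives were quantile normalization once more, median centring, no dim probe sets, trend and robust moderation, weights, other sets of arrays, the replicate block and the Gapdh covariate. The script was tested on simulated data. The exact permutation tests used scipy 1.17.1, and figures were drawn with matplotlib 3.10.9. The rule for named genes took every list member that has values. Its lists of other genes and cell type markers could not be used without gene names. The members, lists and tests were chosen with earlier results of these data known.

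A second deposited table holds gene symbols, 38 of the 40 members among them, and 9 value columns. None of the 9 matched a sample label, and they were not used, so the means per column and the genes departing from them were not analysed here. Promoter windows and their coordinates came from RefSeq (GRCm38.p6).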

Additional observations from a re-analysis of the deposited data

How the results depend on the processing

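In 49 further fits of the 4 comparisons, 0 of 3 members passed, and 2 more repeat the reported fit. Some of the 49 coincide with each other or with the reported fit of another comparison, so they are not 49 separate checks. The Gapdh covariate was added after seeing the data. Of 99 single-gene differences that a setting moved, 84 kept their direction and 15 turned. Cdk1 was above premalignant cells in each fit that compared them, by 0.34 to 0.92 log2 units for lymphoma (limma adjusted p = 0.114 to 0.326). The lymphoma value was 0.45 without premalignant sample 2 and 0.92 without 3.

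On leaving out 1 array, lymphoma against premalignant cells ran from -0.10 to 0.34 for Mki67 and from -0.0077 to 0.45 for Top2a, both lowest without premalignant sample 2. For the CD1dtet+ tumors, Mki67 ran from -0.089 without CD1dtet+ tumor 1 to 0.55 without tumor 2, and Top2a was 0.036 and 0.49 without premalignant samples 2 and 3 and 0.075 and 0.52 without CD1dtet+ tumors 1 and 2. Without premalignant sample 2, Cdk1 was 0.47 for the CD1dtet+ tumors and 0.42 for the CD1dtet- tumor. For the CD1dtet- tumor, Mki67 ran from -0.30 to 0.15 and Top2a from -0.096 to 0.36, without premalignant samples 2 and 3. Between the tumor kinds, Mki67 ran from -0.62 to 0.024, Top2a from -0.36 to 0.091 and Cdk1 from -0.12 to 0.032, without CD1dtet+ tumors 2 and 1. With the Gapdh covariate, Mki67 and Top2a turned to -0.28 and -0.15 for lymphoma, to -0.18 and -0.098 for the CD1dtet+ tumors, and Top2a to -0.26 for the CD1dtet- tumor. The cause was not tested.

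With the replicate number as a block, which takes premalignant sample 3 out of the difference, the CD1dtet+ difference was 0.93 for Cdk1 (limma adjusted p = 0.0906), 0 of 3 members passed, and calls over all probe sets went from 2184 to 671. Deviations of same-numbered arrays correlated at 0.02 and -0.02 across probe sets. Over these fits, calls among all probe sets ran from 167 to 2285 for lymphoma (1048 as reported), 512 to 2827 for the CD1dtet+ tumors (2184), 401 to 2968 for the CD1dtet- tumor (1356) and 0 to 2034 between the tumor kinds (614). Leaving out 1 array cannot turn the Cdk1 rise or pairs, whose stages do not overlap, and did not turn the other pair. The 3-gene average moved by less than the premalignant SD. It turned in CD1dtet+ tumor 2, from 0.03 to -0.05 (median over genes) and -0.03 (median centring). Averages over several probe sets per gene and column means of the second table were not run.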
